A study of Mus musculus with 4 samples.

Results

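Perineuronal nets are lattices of extracellular matrix that wrap the cell bodies and proximal dendrites of some neurons. The genes described here encode their main proteins and the secreted glycoprotein reelin. The group holds 10 genes: the lecticans Acan, Bcan, Ncan and Vcan, the link proteins Hapln1, Hapln2 and Hapln4, the tenascins Tnr and Tnc, and Reln. They were chosen by symbol through the GENCODE annotation of GRCm38, as 10 of the 53465 gene identifiers in the deposited count matrix, and each was found there. Levels were measured by poly(A) RNA sequencing of lateral habenula tissue from socially isolated (2 libraries) and group-housed (2 libraries) C57BL/6 mice. The length of isolation, the age and sex of the animals and whether a library came from a single animal or a pool are not given in the sources read for this account. The p-values therefore reflect only the spread between these libraries, and that spread may be technical. The series asks whether acute social isolation alters this nucleus.

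In a net, long chains of hyaluronan made at the cell surface are bound by the amino-terminal domains of lecticans, which carry chondroitin sulfate. Link proteins hold that contact together, and tenascin-R joins the other ends of the lecticans. Nets are best known around parvalbumin neurons, and the same proteins also form looser matrix between cells and coats at nodes of Ranvier. Reelin guides neuron positioning in development and acts at synapses in the adult through the receptors Vldlr and Lrp8 and the adaptor Dab1.

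The libraries held 20897605 to 26428152 counts. All 10 genes had enough counts to be tested among 17528 genes. Levels are given as CPM, each count being divided by the library's effective total. A floor of 3 counts equals 0.113 to 0.146 CPM, depending on the library, and every member lay above it in every library. All 7 lateral habenula markers were detected, and 3 were higher and 4 lower in isolated libraries. Their sums overlapped between the groups, at 1880 and 1694 CPM in isolated and 1827 and 1753 CPM in group-housed libraries. Slc17a6 measured 439 and 381 CPM in isolated and 434 and 439 CPM in group-housed libraries. Gpr151 measured 426 and 426 CPM in isolated and 397 and 352 CPM in group-housed libraries. Transcripts known from outside the nucleus were also present, such as that of the choroid plexus gene Ttr, which measured 22.1 and 26.9 CPM in isolated and 3.41 and 102 CPM in group-housed libraries.

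The matrix transcripts differed widely in abundance. Levels of different genes were compared as CPM per kilobase of merged exon (RPKM), computed from the deposited counts. Bcan, encoding brevican, the lectican with the shortest core protein, had the highest level, at 92.0 ± 3.77 RPKM in isolated and 99.8 ± 6.13 RPKM in group-housed libraries (SD, n = 2 each). Its mean over the 4 libraries exceeded that of 98.1% of the tested genes. Tnr followed at 34.5 ± 0.123 RPKM in isolated and 33.5 ± 0.601 RPKM in group-housed libraries. Acan, encoding aggrecan, the lectican most closely tied to dense nets, had the lowest level, at 0.371 ± 0.110 RPKM in isolated and 0.457 ± 0.0275 RPKM in group-housed libraries, above 11.9% of the tested genes. The order from high to low was Bcan, Tnr, Hapln2, Ncan, Hapln4, Reln, Tnc, Vcan, Hapln1 and Acan. Of the 9 pairs of neighbours in this order, Hapln2 with Ncan and Tnc with Vcan overlapped in range over the 4 libraries, and the other 7 did not. The order was the same when the longest annotated transcript was used as the length, a choice added after seeing the data, although Reln then averaged 10.6 RPKM in place of 5.22 RPKM over the 4 libraries.

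**Figure D1:**
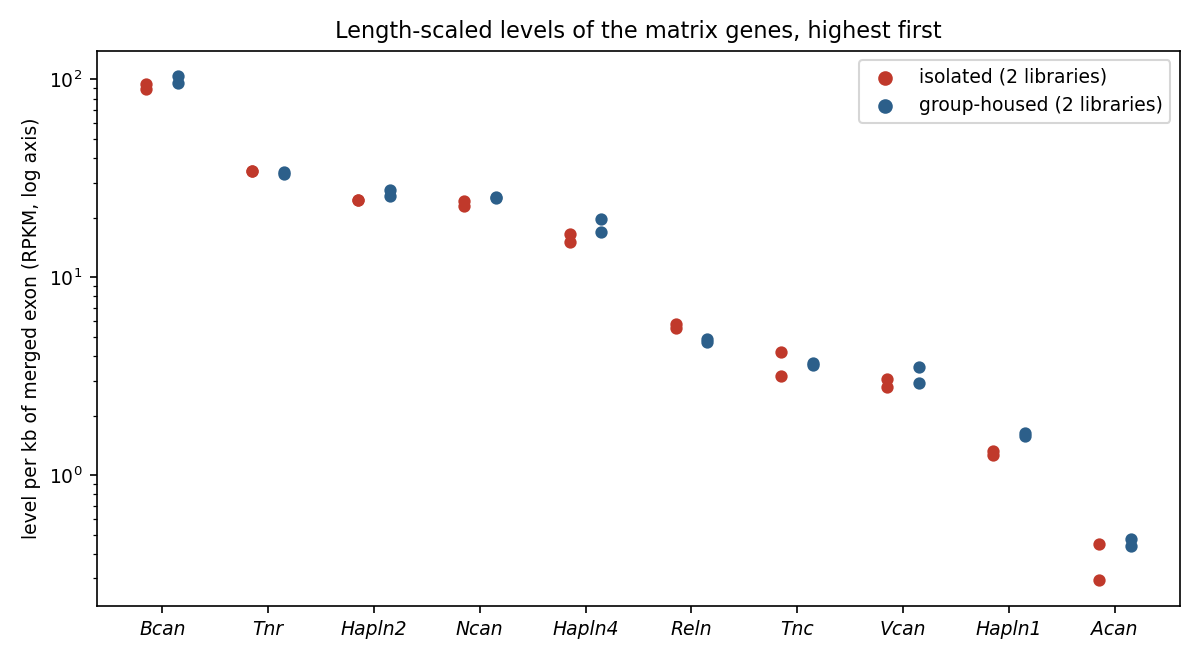
Level of each gene per kilobase of merged exon (RPKM, log axis) in the isolated (red) and group-housed (blue) libraries, 1 point per library, genes ordered by mean level. Bcan stands highest and Acan lowest, and Acan is the gene whose isolated libraries lie farthest apart on this axis.

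No lectican passed the test for a difference between isolated and group-housed libraries. Bcan gave 363 and 385 CPM in isolated and 423 and 388 CPM in group-housed libraries. The groups did not overlap, but the upper isolated and the lower group-housed value nearly met. The log2 fold change of Bcan was -0.12 (SE 0.08), with an adjusted p = 0.994 (edgeR quasi-likelihood test, Benjamini-Hochberg over all 17528 genes). Without group-housed replicate 1 it was -0.05, and without the other group-housed library -0.19. Ncan encodes neurocan, a lectican made in quantity by the young brain. Ncan measured 176 and 165 CPM in isolated and 184 and 181 CPM in group-housed libraries, again without overlap (log2 fold change -0.10, SE 0.06, edgeR adjusted p = 0.994). Leaving out isolated replicate 2 gave -0.06 for Ncan, and leaving out isolated replicate 1 gave -0.14. Vcan encodes versican, whose short brain isoform is a product of the oligodendrocyte lineage. Its values were 40.5 and 44.1 CPM in isolated and 42.1 and 51.0 CPM in group-housed libraries, so the groups overlapped, and group-housed replicate 2 was the highest. Its log2 fold change of -0.14 (SE 0.10, edgeR adjusted p = 0.999) was -0.0021 without that library. Acan had 88 and 58 counts in isolated and 73 and 84 counts in group-housed libraries, or 3.35 and 2.19 CPM against 3.56 and 3.27 CPM. Isolated replicate 2 was low, whereas isolated replicate 1 lay inside the group-housed range. The log2 fold change of Acan was -0.30 with an SE of 0.25 (edgeR adjusted p = 0.9998), and counting error alone, without any spread between libraries, would give 0.17. Without isolated replicate 2 it was -0.02 and without isolated replicate 1 it was -0.64. In bulk tissue, fewer cells of a type and less RNA per cell cannot be told apart, for these and the following genes.

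The link proteins lay lower in the isolated libraries, without passing the test. Hapln1, the cartilage-type link protein that stabilises aggrecan on hyaluronan, gave 7.47 and 7.86 CPM in isolated and 9.31 and 9.65 CPM in group-housed libraries. The groups stood apart, and the counts behind these values were 196 and 208 in isolated and 191 and 248 in group-housed libraries. The log2 fold change of Hapln1 was -0.31 (SE 0.13), with an unadjusted p = 0.0472 and an adjusted p = 0.974 in the edgeR test. Hapln4, also known as Bral2, is a brain link protein that accompanies brevican at inhibitory synapses and nets. Hapln4 measured 64.8 and 59.1 CPM in isolated and 77.5 and 66.4 CPM in group-housed libraries. The upper isolated value lay just under the lower group-housed one, and group-housed replicate 1 was the highest of the 4. Its log2 fold change was -0.21 (SE 0.09, edgeR unadjusted p = 0.0378, adjusted p = 0.933). It became -0.10 when group-housed replicate 1 was left out and -0.33 when group-housed replicate 2 was. Hapln2, also known as Bral1, is a link protein of oligodendrocyte origin found at nodes of Ranvier. Hapln2 measured 58.1 and 58.4 CPM in isolated and 65.5 and 61.2 CPM in group-housed libraries, with no overlap (log2 fold change -0.12, SE 0.07, edgeR adjusted p = 0.979). Leaving out group-housed replicate 1 gave -0.07 for Hapln2, and leaving out group-housed replicate 2 gave -0.18.

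Neither tenascin passed the test. Tnr, encoding tenascin-R, was the member with the most counts, and gave 445 and 443 CPM in isolated and 426 and 437 CPM in group-housed libraries. Both isolated values were above both group-housed ones, by a small margin. The log2 fold change of Tnr was 0.04 (SE 0.07, edgeR adjusted p = 0.9998), with a 95% interval, not adjusted for the number of genes, from -0.11 to 0.20. Tnc encodes tenascin-C, a matrix protein of developing and injured tissue that astrocytes make. Tnc gave 32.5 and 24.5 CPM in isolated and 28.0 and 28.5 CPM in group-housed libraries, so that the isolated libraries were the highest and the lowest of the 4. Its log2 fold change was 0.01 (SE 0.13, edgeR adjusted p = 0.9998), and became -0.21 without isolated replicate 1 and 0.20 without isolated replicate 2.

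Reln had the smallest p of the 10 genes and did not pass either. It gave 137 and 132 CPM in isolated and 112 and 115 CPM in group-housed libraries, with a clear gap between the groups. The means were 135 ± 3.86 CPM in isolated and 113 ± 2.35 CPM in group-housed libraries (SD, n = 2 each), a fold of 1.19. The log2 fold change of Reln was 0.25 (SE 0.06), with an unadjusted p = 0.00312 and an adjusted p = 0.531 in the edgeR test. The value stayed between 0.22 and 0.28 across the fits that omit 1 library each, and in 0 of the 11 alternatives did the adjusted p pass 0.05 (lowest 0.138). An annotated antisense gene, Gm10475, overlaps an exon of Reln on the opposite strand. That partner had 1 and 2 counts in isolated and 3 and 6 counts in group-housed libraries, against at least 2292 counts of Reln. The antisense partners of Tnr and Tnc had at most 1 and 3 counts in any library, and the exons of the other 7 members overlap no other annotated gene.

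**Figure D2:**
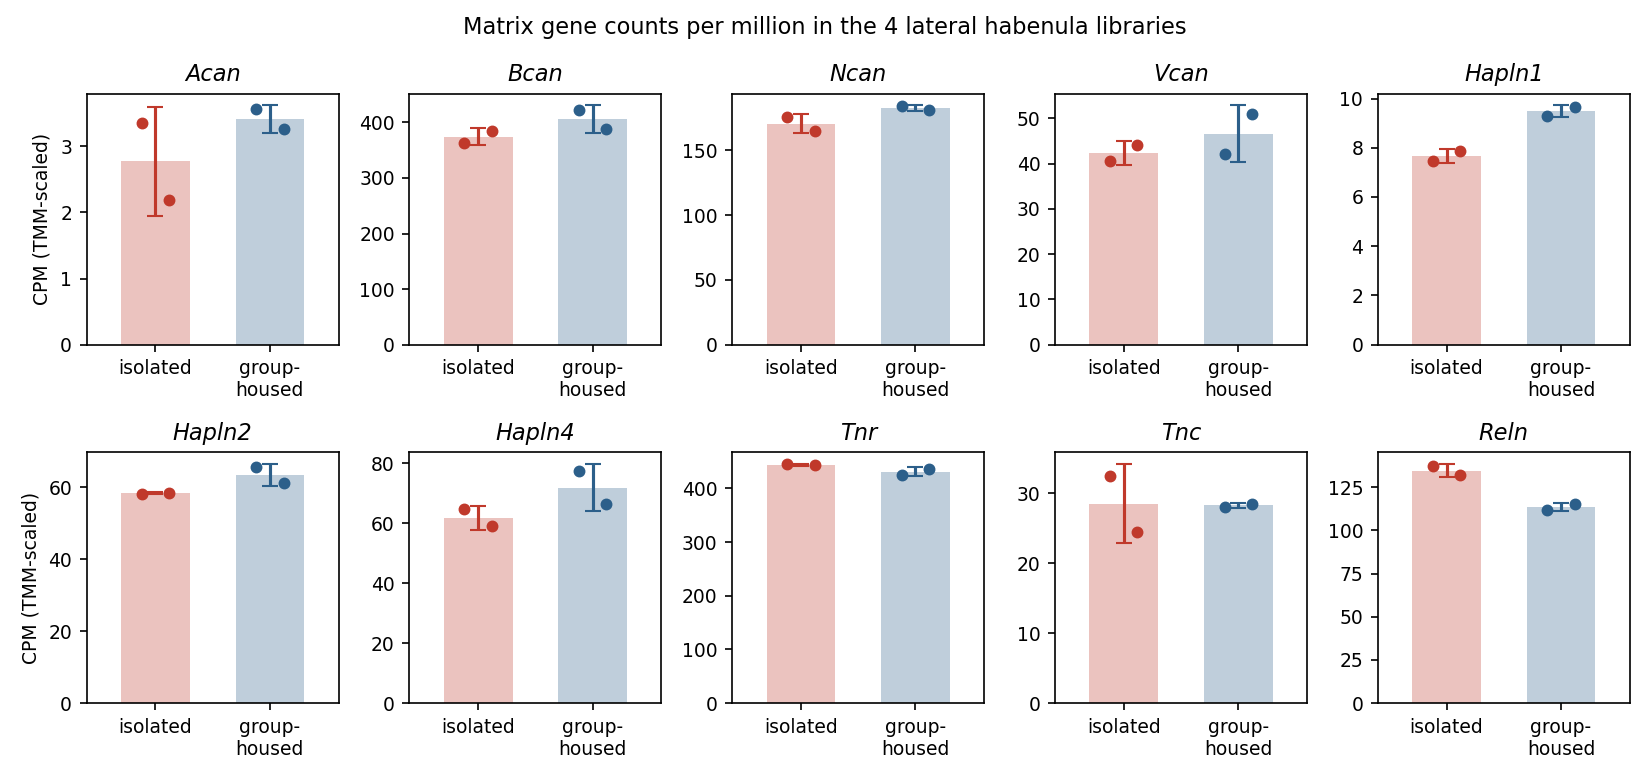
CPM of each gene in isolated (red, left) and group-housed (blue, right) libraries: points are libraries, bars the mean and whiskers the SD of 2 libraries, on linear axes from 0. Hapln1 and Reln show the clearest gaps between the groups, downward and upward, while the isolated points of Acan and Tnc lie far from each other.

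The regions upstream of a RefSeq start of Reln and Hapln1 are shown. These genes had the largest positive and the largest negative log2 fold change of the members. They cover the 250 bases before the RefSeq start (GRCm38.p6), 5′ to 3′ on the gene's strand, and capitals mark the letters GGGCGG (a GC box) and CACGTG (an E-box), on either strand.
Reln, minus strand, chr5:22344706-22344955: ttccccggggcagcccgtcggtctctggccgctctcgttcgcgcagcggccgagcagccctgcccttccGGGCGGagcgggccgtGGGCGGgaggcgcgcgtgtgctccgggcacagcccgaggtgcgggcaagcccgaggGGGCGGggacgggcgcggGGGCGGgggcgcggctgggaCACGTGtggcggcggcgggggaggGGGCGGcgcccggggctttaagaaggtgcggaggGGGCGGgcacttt
Hapln1, plus strand, chr13:89540386-89540635: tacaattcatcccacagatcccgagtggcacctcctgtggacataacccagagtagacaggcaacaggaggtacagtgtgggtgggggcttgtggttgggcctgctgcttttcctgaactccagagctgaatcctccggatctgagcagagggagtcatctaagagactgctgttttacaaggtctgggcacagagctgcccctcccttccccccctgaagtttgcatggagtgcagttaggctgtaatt
The region of Reln had 80.0% G and C and 37 CpG dinucleotides, and 6 GC boxes and 1 E-box. The region of Hapln1 had 54.4% G and C, 2 CpG dinucleotides and neither motif. It lies inside the GENCODE span of Hapln1, which begins at 89539796, and so is not upstream of the whole annotated gene. The 2 regions are therefore not like for like. RefSeq gave such regions for 9 of the 10 members. Across 32851 promoter windows of the same length, the median content was 52.4% G and C with 6 CpG dinucleotides, 32.7% held at least 1 GC box and 6.02% at least 1 E-box. These letters describe the sequence, and no measurement of binding or methylation accompanies them. No window of a member held the cyclic AMP response element TGACGTCA, which 1.55% of all windows held.

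Over the 10 members, 0 passed the adjusted threshold of 0.05 in the edgeR test, where 0.0114% of all tested genes passed (Slc5a7 and Chrnb3, both higher, adjusted p = 0.0227 each, and both in the list of medial habenula markers used further on, against 221 genes without isolated replicate 1 and 1 gene without either group-housed library). DESeq2, edgeR's exact test and limma-voom also called 0 members, although DESeq2 gave no adjusted p for Acan. At an unadjusted p below 0.05 in the quasi-likelihood test there were 3 members, Reln higher and Hapln1 and Hapln4 lower, where 5.09% of all tested genes lay below that p, 2.83% as higher and 2.26% as lower. This set depended on the method. DESeq2 left only Reln below that p (2.78% of all tested genes), and the exact test Reln and Hapln4 (4.94%). The filter of 5 CPM on average also left Reln and Hapln4 (5.85%). Of the 10 members 7 had a negative log2 fold change, and their median was -0.12. Across all tested genes 48.8% were negative, with a median of 0.0033. For 5 members (Bcan, Ncan, Hapln1, Hapln2 and Hapln4) the isolated pair lay wholly below the group-housed pair, and 16.3% of all tested genes did so. For Reln and Tnr it lay wholly above, and 17.4% of all tested genes did so. The members were chosen with earlier results of these data known, so these counts are a description.

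**Figure D3:**
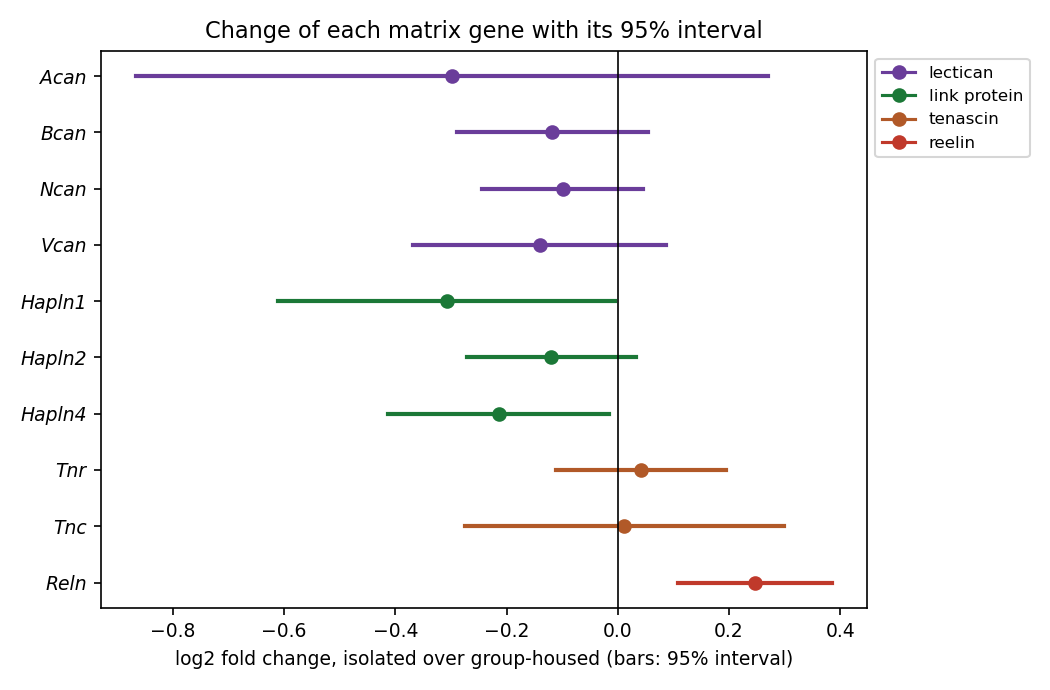
Log2 fold change of each gene, isolated over group-housed, with its 95% interval from the edgeR quasi-likelihood fit (not adjusted for the number of genes); colours mark the lecticans, link proteins, tenascins and reelin. Only the intervals of Reln, Hapln1 and Hapln4 exclude 0, and that of Acan is the widest, from -0.87 to 0.27.

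The groups overlapped in every measure of the make-up of the families. Bcan made up 77.3 ± 1.33% of the summed lectican level per kilobase in isolated and 77.4 ± 1.14% in group-housed libraries (SD, n = 2 each). Ncan made up 19.9 ± 1.33% in isolated and 19.7 ± 0.688% in group-housed libraries, Vcan 2.46 ± 0.0921% and 2.51 ± 0.455%, and Acan 0.313 ± 0.0999% and 0.355 ± 0.00475%. Brevican and neurocan transcripts thus made up nearly all of the lectican level in each library. Among the 3 link proteins, Hapln2 held 59.0 ± 1.46% in isolated and 57.3 ± 1.24% in group-housed libraries, Hapln4 37.9 ± 1.64% and 39.2 ± 1.56%, and Hapln1 3.12 ± 0.178% and 3.45 ± 0.328%. The log2 ratio of Tnr to Tnc, per kilobase, was 3.05 and 3.45 in isolated and 3.20 and 3.21 in group-housed libraries. Exact 2-sided permutation tests over the libraries gave p = 0.667 for each link protein share and p = 1 for the 4 lectican shares and the tenascin ratio, in a design whose smallest possible p is 0.333. The summed lectican level was 117 and 121 RPKM in isolated and 133 and 125 RPKM in group-housed libraries, and the summed link protein level 42.3 and 41.0 RPKM in isolated and 49.0 and 44.4 RPKM in group-housed libraries.

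Each lectican gene lies beside a link protein gene in the GRCm38 annotation, with 0 protein-coding genes between them. On chromosome 3, Bcan (87987531 to 88000230) and Hapln2 (88021750 to 88027583) share the minus strand, 21519 bases apart. On chromosome 8, Ncan (70093085 to 70120873, minus strand) and Hapln4 (70083457 to 70090862, plus strand) are 2222 bases apart. On chromosome 13, Vcan (89655312 to 89742509, minus strand) and Hapln1 (89539796 to 89611652, plus strand) are 43659 bases apart. Within these 3 pairs the log2 fold changes had the same sign, at -0.12 for Bcan and -0.12 for Hapln2, -0.10 for Ncan and -0.21 for Hapln4, and -0.14 for Vcan and -0.31 for Hapln1. Every lectican and link protein of the group had a negative log2 fold change. Any other pairing of them would share a sign too, so the shared sign is not particular to neighbours. On chromosome 7, Acan (79053483 to 79115099, plus strand) ends 2 bases before the end of Hapln3 (79115102 to 79131018, minus strand), a link protein gene outside the group. Hapln3 gave 1.07 and 1.36 CPM in isolated and 0.975 and 1.17 CPM in group-housed libraries (log2 fold change 0.17, SE 0.30), against -0.30 for Acan. The annotated exons of Acan and Hapln3 do not overlap. The remaining members lie on chromosome 1 (Tnr, 159523769 to 159931729, plus strand), chromosome 4 (Tnc, 63959785 to 64047015, minus strand) and chromosome 5 (Reln, 21884454 to 22344702, minus strand).

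Other genes that build, bind, cleave or read this matrix were described in 5 lists, and 0 of their genes passed the adjusted threshold in the edgeR test (0 also with DESeq2, the exact test and limma-voom). For the counts at an unadjusted p below 0.05 in these lists, the share over all tested genes was 5.09% (2.83% higher, 2.26% lower). Of 19 genes of reelin reception and signalling, 6 were higher and 13 lower (median -0.03 on the log2 scale, 0.0028 without isolated replicate 2), and 2 lay at an unadjusted p below 0.05, 1 in each direction. The reelin receptor gene Lrp8 had the smallest p of that list, at 148 and 157 CPM in isolated and 125 and 129 CPM in group-housed libraries, without overlap (log2 fold change 0.26, SE 0.06, edgeR unadjusted p = 0.00289, adjusted p = 0.510). Vldlr and Dab1, named after their values were seen because of their roles, encode the other receptor and the adaptor. Vldlr gave 110 and 113 CPM in isolated and 115 and 114 CPM in group-housed libraries, and Dab1 45.3 and 43.4 CPM in isolated and 45.4 and 45.1 CPM in group-housed libraries. The most abundant genes of the list were Pafah1b1, a dynein regulator (log2 fold change -0.07), the actin-severing factor gene Cfl1 (-0.08) and the kinase gene Gsk3b (-0.0072).

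Of 16 tested genes of hyaluronan synthesis, turnover and binding, 5 were higher and 11 lower (median -0.10), with 3 at an unadjusted p below 0.05. Itih3, a heavy chain that is attached covalently to hyaluronan, gave 119 and 124 CPM in isolated and 139 and 138 CPM in group-housed libraries (log2 fold change -0.19, SE 0.06, edgeR adjusted p = 0.780). Its relative Itih5 had a log2 fold change of -0.12. Cemip2, a cell-surface hyaluronidase, lay the other way, at 48.4 and 49.4 CPM in isolated and 45.1 and 40.7 CPM in group-housed libraries (0.19, SE 0.08, edgeR adjusted p = 0.929). The median of this list was 0.01 without group-housed replicate 2. Of 22 tested genes of chondroitin sulfate synthesis and breakdown, 8 were higher and 14 lower. Their median was -0.05 (-0.0097 with isolated replicate 2 left out and -0.09 with group-housed replicate 2 left out). In the edgeR test 1 of them was at an unadjusted p below 0.05. This was Ust, which adds 2-O sulfate to uronic acid, at 30.5 and 28.7 CPM in isolated and 36.8 and 33.6 CPM in group-housed libraries (-0.25, SE 0.08, edgeR adjusted p = 0.840). The most abundant genes were B3gat3 (-0.07), which completes the linker of the chain, the sulfatase gene Arsb (-0.09) and the 4-O sulfotransferase gene Chst11 (0.01).

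Of 22 tested matrix proteases and inhibitors, 8 were higher and 14 lower (median -0.05, -0.09 without group-housed replicate 2), with 1 at an unadjusted p below 0.05. Timp3, a metalloprotease inhibitor bound to matrix, gave 219 and 211 CPM in isolated and 232 and 253 CPM in group-housed libraries (log2 fold change -0.17, SE 0.07, edgeR adjusted p = 0.928). The protease inhibitor genes Timp2 and Serpine2 had log2 fold changes of -0.06 and -0.17. Of 22 tested receptors and partners of nets, 9 were higher and 13 lower (median -0.02, -0.06 with group-housed replicate 1 left out and -0.0050 with group-housed replicate 2 left out), with 6 at an unadjusted p below 0.05, 4 of them higher. Rtn4rl2, a Nogo receptor relative, gave 27.1 and 31.4 CPM in isolated and 22.8 and 21.2 CPM in group-housed libraries (0.41, SE 0.10, edgeR adjusted p = 0.489). Cntn1, a binding partner of tenascin-R on axons, had a log2 fold change of -0.08, the syndecan gene Sdc3 one of -0.02, and Ptprs, a phosphatase receptor of chondroitin sulfate, one of 0.06. Without isolated replicate 1, Rtn4rl2 and Otx2 of this last list passed the threshold, when the number of genes called across the whole table was 221 in place of 2. Several listed genes overlap exons of another gene on the opposite strand, among those named here Arsb, Cemip2, Cfl1, Lhx5, Otx2, Sdc3 and Timp3, and Otx2 also overlaps a gene on its own strand. How the counting treated strand is not stated by any label, and reads of these partners may be included.

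**Figure D4:**
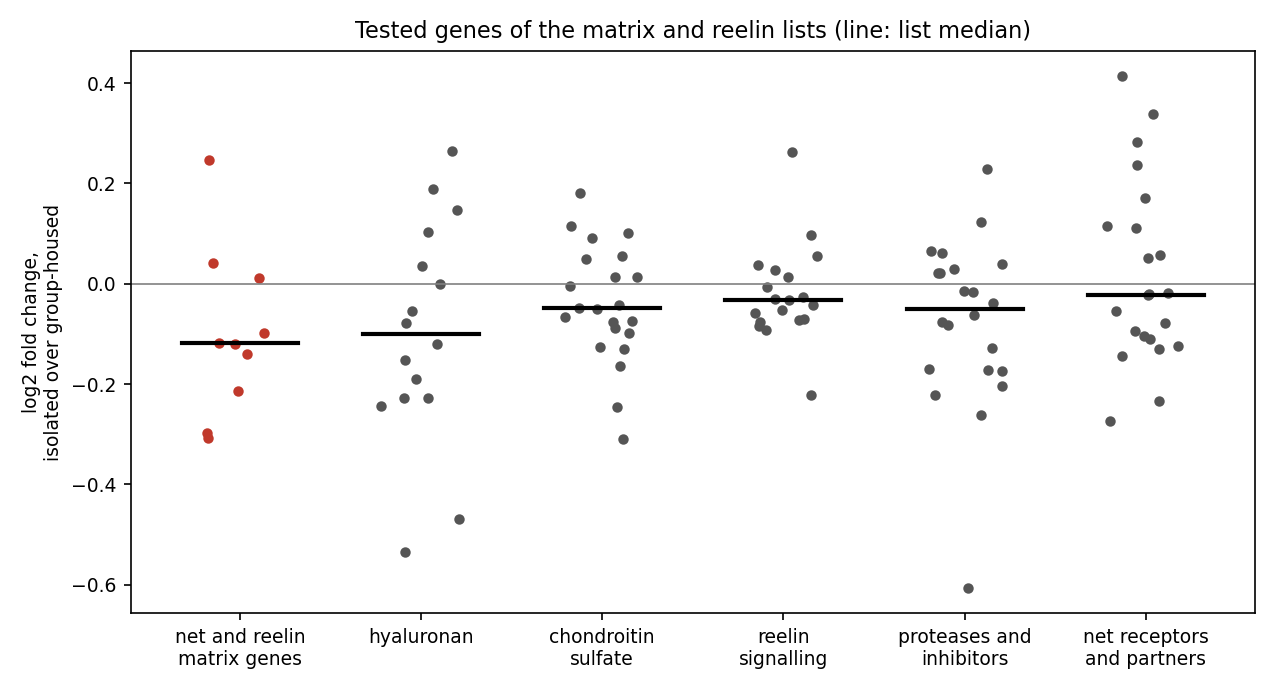
Log2 fold change, isolated over group-housed, of every tested gene in the matrix gene group (red) and in the 5 lists of related genes (grey), with horizontal lines at the medians. The medians lie between -0.12 and -0.02 and the points of every list fall on both sides of 0.

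Levels of cell type and region markers are set beside the members that these cells are known to express, and their part in the values of those members was not tested. For oligodendrocytes, known to express Hapln2 and Tnr, all 10 markers were lower. Their summed level was 10135 and 11873 CPM in isolated and 13342 and 12327 CPM in group-housed libraries, with isolated replicate 1 the lowest. Beside these, Hapln2 gave 58.1 and 58.4 CPM in isolated and 65.5 and 61.2 CPM in group-housed libraries. Tnr gave 445 and 443 CPM in isolated and 426 and 437 CPM in group-housed libraries. For oligodendrocyte precursors, known to express Bcan and Vcan, all 8 markers were lower, and the summed level was 620 and 625 CPM in isolated and 703 and 662 CPM in group-housed libraries. Of 9 markers of astrocytes, known to express Bcan, Ncan and Tnc, 7 were lower, with a summed level of 4522 and 4503 CPM in isolated and 5010 and 4666 CPM in group-housed libraries. None of the markers in these 3 lists was at 0.

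For net-bearing parvalbumin neurons, 4 of 6 markers were lower and none was at 0, and the summed level was 306 and 260 CPM in isolated and 299 and 296 CPM in group-housed libraries. Isolated replicate 2 was the lowest library for this sum, and also for Acan, Ncan, Hapln4 and Tnc. It was the lowest as well for the sums of astrocytes, microglia, lateral habenula and thalamus. For Bcan, Vcan, Hapln1 and Hapln2 isolated replicate 1 was the lowest, and for Tnr and Reln group-housed replicate 1. The largest part of the parvalbumin neuron sum was Kcnc1, at 157 and 124 CPM in isolated and 159 and 155 CPM in group-housed libraries. Pvalb itself, named after its values were seen, was lowest in isolated replicate 1. It gave 17.0 and 19.7 CPM in isolated and 21.9 and 19.5 CPM in group-housed libraries. A link between this list and the members was not tested. For Cajal-Retzius cells and reelin interneurons, 5 of 6 markers passed the count filter and 4 of these were higher, with Lhx5 below the filter. The summed level was 112 and 119 CPM in isolated and 123 and 102 CPM in group-housed libraries. Most of it came from Id2, the 1 lower marker, at 83.5 and 87.4 CPM in isolated and 103 and 77.6 CPM in group-housed libraries. Sst gave 16.9 and 20.9 CPM in isolated and 10.6 and 14.7 CPM in group-housed libraries (log2 fold change 0.57, SE 0.17, edgeR adjusted p = 0.729). It was the only marker of this list without overlap between the groups. The sums overlapped between the groups, whereas the median level of the 5 tested markers, which weights them equally, did not, at 0.13 and 0.0017 in isolated and -0.08 and -0.12 in group-housed libraries, as log2(CPM + 0.5) minus the mean of the 4 libraries. In the adjoining medial habenula list 8 of 8 genes were higher without overlap, and they summed to 1557 and 1564 CPM in isolated and 1217 and 1108 CPM in group-housed libraries. Of all tested genes 17.4% were higher without overlap and 16.3% lower without overlap. Markers of hippocampus and cortex summed to 385 and 422 CPM in isolated and 335 and 346 CPM in group-housed libraries, and 5 of their 7 tested genes were higher. Of 10 thalamus markers 9 were lower, with sums of 1592 and 1462 CPM in isolated and 1617 and 1696 CPM in group-housed libraries. None of the medial habenula and thalamus markers was at 0. All 7 ependyma markers were higher, 6 of them without overlap, and summed to 73.2 and 144 CPM in isolated and 70.9 and 66.2 CPM in group-housed libraries, with isolated replicate 2 far above the others. All 6 microglia markers were lower, with sums of 295 and 289 CPM in isolated and 338 and 301 CPM in group-housed libraries. Meningeal fibroblast markers summed to 326 and 458 CPM in isolated and 459 and 460 CPM in group-housed libraries. That gap was narrow, and the median levels of the list overlapped between the groups. The sums for oligodendrocytes, their precursors, astrocytes, microglia, ependyma, medial habenula, hippocampus and cortex, and thalamus also separated the groups, in 1 direction or the other. Single genes did so at the shares given above. A different share of neighbouring tissue and a change within cells cannot be told apart here.

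**Figure D5:**
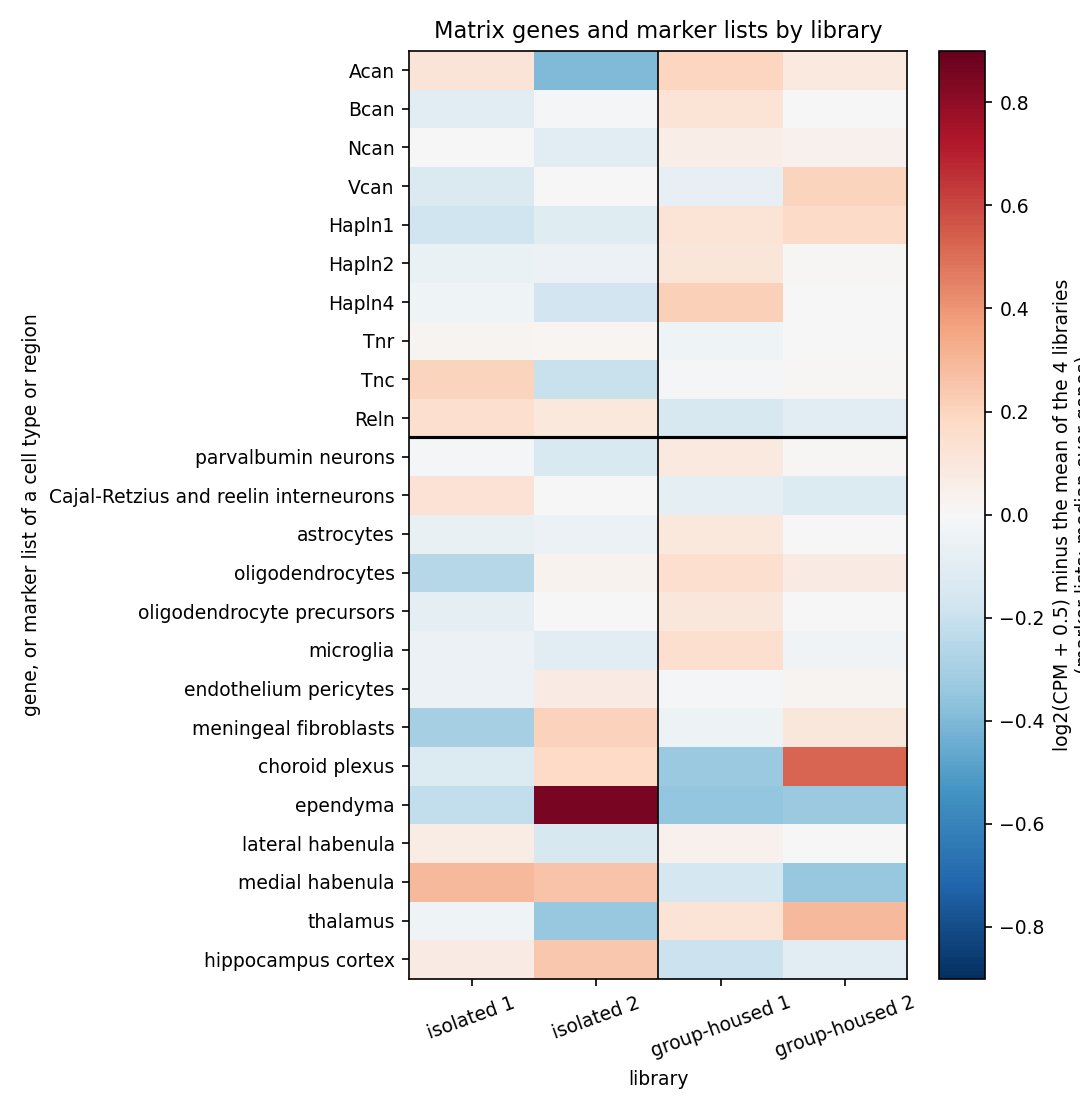
Level of each matrix gene (upper rows) and median level of each marker list (lower rows) in the 2 isolated (left) and 2 group-housed (right) libraries, as log2(CPM + 0.5) minus the mean of the 4 libraries; red is higher and blue lower. The medial habenula, the hippocampus and cortex and the Reln rows are above 0 in both isolated libraries. So are the Tnr row, faintly, and the row of Cajal-Retzius cells and reelin interneurons (0.13 and 0.0017). The ependyma row is red only in isolated replicate 2.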

How the data were processed

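Lateral habenula RNA from 2 isolated and 2 group-housed libraries was compared. Per the labels' protocols, Trizol was used for extraction and a stranded poly(A) kit for the libraries. GRCm38 is the build in the submitters' processing notes, which also list HTSeq, TopHat2 2.1.1, CASAVA and edgeR with no role. The release of the annotation and the counting's strand setting are not given there. Every value comes from raw counts per gene that the authors deposited in 1 matrix. Normalised per-library files were not used here.

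Identifiers were matched to symbols, positions and merged exon lengths in GENCODE M21 (53360 of 53465). Isolated libraries were tested against group-housed ones with edgeR 4.0.16 in R 4.3.3 (TMM factors 0.983 to 1.020, filterByExpr, 2-sided quasi-likelihood test, no covariate) and Benjamini-Hochberg adjustment over 17528 genes at 0.05. CPM values used TMM-effective library sizes. The standard error was taken from the log2 fold change and the F statistic. The common biological coefficient of variation was 7.20%. Intervals of log2 fold changes used that standard error, and so include the spread between libraries. The floor from counts and the counting error given for Acan cover counting error only. The fit was tested on simulated data.

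The members and lists were chosen with earlier results of these data known. All members were named. In each list of related genes the 3 most abundant, the gene with the smallest p and every gene past the threshold were named. Of a marker list up to the 2 most abundant were named. Pvalb, Lhx5, Slc5a7 and Chrnb3 were named in addition. Alternatives were other scaling (DESeq2 1.42.0 size factors), other filters, DESeq2, edgeR's exact test, limma-voom (limma 3.58.1), a replicate block and leaving out each library.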

Additional observations from a re-analysis of the deposited data

How the results depend on the processing

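No member passed the adjusted threshold under any of the 11 alternatives, among them a filter of at least 5 CPM on average, which removed Acan. DESeq2 gave no adjusted p for Acan. Of 109 log2 fold changes of members, 106 kept their direction. Tnc did not with limma-voom (-0.0035), with the replicate block (-0.0017) or without isolated replicate 1. Its values ranged from -0.21 to 0.20 when libraries were left out. The cause was not tested. Over all genes 2 passed in the main analysis, 15 with no filter on low counts, 53 with DESeq2, 82 with edgeR's exact test, and 1 to 221 when a library was left out (1 without either group-housed library, 221 without isolated replicate 1). Genes of the related lists numbered 0, and 0 to 2 when a library was left out.

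With the replicate number as a block 64 genes passed, none of them a member. The labels do not say that a number marks a shared animal or batch. Deviations of same-numbered libraries correlated at 0.146, and 2 pairs do not show a pairing.

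Differences in share, isolated minus group-housed, changed sign when a library was left out, ranging from -0.112 to 0.0291 percentage points for Acan (isolated replicate 2), -1.07 to 0.814 for Bcan and -0.716 to 1.16 for Ncan (isolated replicate 1 or group-housed replicate 1), and -0.372 to 0.271 for Vcan (isolated replicate 1 or group-housed replicate 2). The difference in log2 Tnr over Tnc ranged from -0.157 to 0.244, changing sign without isolated replicate 2. The link protein shares kept their direction, as did all shares with raw counts or the longest transcript as length. Depth limits Acan most, with 58 to 88 counts per library.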
